A study of Mus musculus with 1753 samples.

Results

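Mural cells of mouse hindlimb muscle were divided by their level of Rgs5, a regulator of G-protein signalling that is widely used as a marker of pericytes. The cells were the 187 that the study's labels place in cluster 7, of 1753 labelled cells in all. Each cell was scaled to 500000 counts without spike-in RNA, and cells with 100 or more Rgs5 counts on this scale were called Rgs5-high. This gave 38 Rgs5-high and 149 Rgs5-low cells. The comparison asked which other genes differ between these sides, and Rgs5 itself was left out of it.

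All cells came from adult male mice aged 10-20 weeks per the labels, and all had been sorted as negative for the endothelial protein CD31. The strain labels were C57BL6, a common inbred strain without a reporter, whose cells were taken with antibodies to PDGFRα or PDGFRβ, and 4 labels of reporter mice. Acta2GFP and Cspg4dsRED mark cells in which the promoter of the named gene is active, PdgfrbGFP does so for Pdgfrb, and the label PdgfraGFP - PdgfrbGFP pool (here, the pool) covers cells of both lines. A reporter can favour cells that express its gene, so the level of Acta2, Cspg4 or Pdgfrb within such a label is also a result of the sort. Acta2GFP tissue had been digested with elastase in addition to collagenase. No label names an animal or counts the animals behind a strain label, and it is not known whether the pool and PdgfrbGFP share a mouse. Summed cells of 1 strain label on 1 side are called a library below, and n = 5 always means 5 strain labels. The p-values therefore rest on how far the difference between the sides varies from label to label, which may be technical.

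Mural cells lie on the outer wall of blood vessels. Smooth muscle cells surround arterioles and venules and contract through actin, a smooth muscle myosin and the kinase that activates it. Pericytes lie singly on capillaries, share a basement membrane with the endothelium and carry little of the contractile apparatus, and their usual markers include the potassium channel formed by Kcnj8 and Abcc9, the matrix protein vitronectin and the PDGF receptor β.

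Cluster 7 carried the markers of mural cells. Myh11, the smooth muscle myosin heavy chain, reached 100 scaled counts in 89.5% of Rgs5-high and 97.3% of Rgs5-low cells, against 0.383% of the cells of all other clusters. Mcam reached this level in 73.7% and 75.2%, against 0.255% elsewhere, and Notch3, the main Notch receptor of mural cells, in 68.4% and 68.5%, against 2.23%. Pdgfra, which marks fibroblasts, reached it in 0 of 38 and 0 of 149 mural cells. Dcn, a fibroblast gene that is very abundant, did so in 71.1% of Rgs5-high and 50.3% of Rgs5-low cells, so that a low level of it was common on both sides.

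Rgs5 (ENSMUSG00000026678, chromosome 1, 169655501 to 169695813, plus strand, GRCm38) varied over the whole range from absent to abundant. In 92 of the 187 mural cells (49.2%) there was no Rgs5 read. A further 32 cells were under 10 scaled counts, 18 were between 10 and 50, and 7 between 50 and 100. On the other side of the threshold, 5 cells were between 100 and 200, 16 between 200 and 1000, and 17 at 1000 or more, with a median of 872 and a maximum of 9059 scaled counts in Rgs5-high cells. The cells just inside the threshold held 106.98, 111.89 and 145.59 scaled counts, and those just outside held 97.29, 88.26 and 76.78. Only 12 cells thus lay between 50 and 200, and most cells lay well away from the threshold.

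The share of mural cells that were Rgs5-high was 20.3% over all labels (95% exact binomial interval 14.8 to 26.8%, for counting error only). It was 19.6% in Acta2GFP (11 of 56 cells, 10.2 to 32.4%), 13.5% in Cspg4dsRED (10 of 74, 6.68 to 23.5%) and 18.9% in PdgfrbGFP (7 of 37, 7.96 to 35.2%). In C57BL6 it was 55.6% (5 of 9, 21.2 to 86.3%) and in the pool 45.5% (5 of 11, 16.7 to 76.6%). The last 2 labels had the highest values and the fewest cells, and their intervals overlap those of the other 3. Outside cluster 7, 3 of 1566 cells (0.192%) reached the threshold. In the plot of Rgs5 per cell, the Rgs5-high cells of C57BL6 and the pool are also those with the most Rgs5, with medians of 4197 and 4455 scaled counts against 508 to 760 in the other labels.

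**Figure D1:**
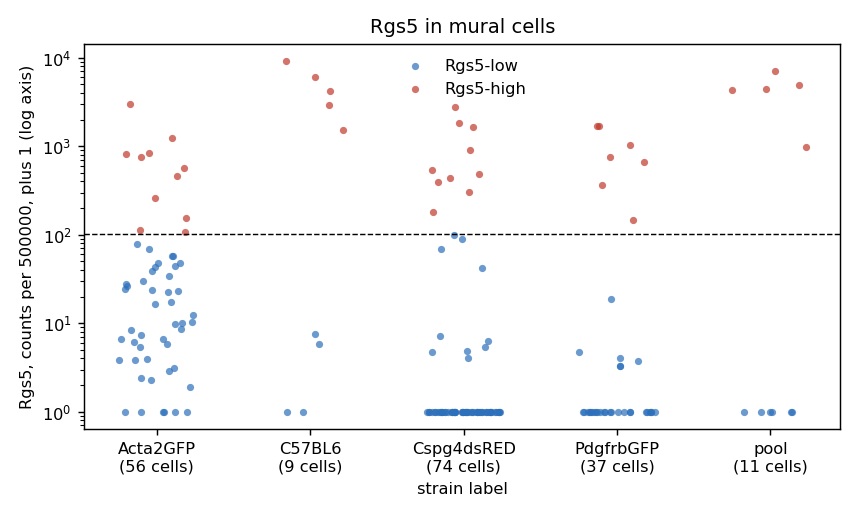
Rgs5 in each mural cell as counts per 500000 (log scale) by strain label, with the threshold of 100 as a line. Of the 187 cells, 92 sit at 0, and the 38 cells above the line reach a median of 872.

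Muscle and plate moved with the share. In PdgfrbGFP, 0 of 17 gastrocnemius cells were Rgs5-high and 4 of 6 soleus cells were, whereas in the pool 4 of 6 gastrocnemius cells and 1 of 5 soleus cells were. The muscles thus stood in opposite order in these labels, with few cells in each. Of the Rgs5-high cells of PdgfrbGFP 4 of 7 were soleus cells, and of its Rgs5-low cells 2 of 30. No muscle is given for 3 of these high and 11 of these low cells. In the pool each muscle was on its own plate, so that muscle and plate cannot be told apart there. Of its Rgs5-high cells 4 of 5 were from the gastrocnemius plate, and of its Rgs5-low cells 4 of 6 were from the soleus plate. In C57BL6 all 5 Rgs5-high cells came from 1 plate and all 4 Rgs5-low cells from another, so that within C57BL6 the side of the threshold and the plate cannot be told apart. The cells of Acta2GFP and of Cspg4dsRED each came from 1 plate, so that their sides were compared within it.

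The 4 Rgs5-low cells of C57BL6 stood apart in another way. Each of them held between 273 and 594 reads of the 10 immune marker genes examined, led by Lyz2, C1qa and C1qb of macrophages, which made up 0.249% of the counts of that library. In the other 9 libraries these genes made up between 0 and 0.00159%. These cells also had a median of 6721 detected genes, against 3465 in the Rgs5-high cells of C57BL6. Values of C57BL6 are therefore given apart from those of the other labels wherever a result leans on them.

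Apart from C57BL6, depth was similar on both sides in 3 labels and differed in the pool. The median was 162396 counts and 3845 genes in Rgs5-high cells and 146389 counts and 3967 genes in Rgs5-low cells. In the pool it was 198334 counts on the high side and 365116 on the low side. Mitochondrial genes took a median of 2.63% and 2.56% of the counts. The summed libraries held between 763876 and 10191529 counts, with fewer cells on the high side than on the low side in every label but C57BL6.

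Across the transcriptome no gene was called by edgeR after a filter on low counts. Counts were summed by strain label and side, and 8205 genes were compared with edgeR's quasi-likelihood test with the strain label as a block. At an adjusted p under 0.05, 0 genes (0.0%) were called, and the lowest adjusted p was 0.528, for Vtn. At an unadjusted p under 0.05 there were 448 genes, of which 61 (0.743% of those tested) were higher and 387 (4.72%) lower in Rgs5-high cells. DESeq2 on the same libraries called 641 genes (7.81%), 72 higher (0.878%) and 569 lower (6.93%), and limma on the mean of the cells' log values called 2, Vtn and Perp (0.0244%). Without the filter on low counts edgeR called 27 of 22256 genes (0.121%), 4 higher (0.018%) and 23 lower (0.103%). The values below are therefore differences that edgeR with the filter did not call, and edgeR without further words means that fit. Calls by the other methods are given for the genes and lists they concern.

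The whole distribution leaned to one side. Over all 8205 genes the median log2 fold change was −0.69, whereas it was −0.14 over the 712 genes with a mean of 8 or more log2 CPM (counts relative to library size, on a log2 scale). It was −0.35 with equal numbers of cells on both sides, an alternative chosen after seeing the data. In all, 641 genes (7.81%) were lower on the high side in every label and 183 (2.23%) were higher in every label. The median shift is given beside each gene list, and a gene that is low in both sides is described by its cells and reads.

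Pericyte markers were the list that stood highest. Of the 20 genes on this list 13 were tested, and 11 had a positive log2 fold change, where the median of all genes was −0.69. At an unadjusted p under 0.05, 6 were higher and 0 lower, where 0.743% and 4.72% of all genes were. The median log2 fold change was 1.59, which lies 2.27 above that of all genes. Over the 12 members with 8 or more log2 CPM it was 1.51, against −0.14 for all genes at that level. The list took between 0.654% and 1.68% of the counts of the Rgs5-high libraries and between 0.25% and 0.475% of those of the Rgs5-low libraries, so that the sides did not overlap. Without C57BL6 the median was 0.85, and without both C57BL6 and the pool, chosen after seeing the data, it was 0.72 over 15 genes tested. DESeq2 called 4 of the 13, all higher (Vtn, Kcnj8, Steap4 and Art3), where it called 0.878% of all genes as higher. Without the filter edgeR called Vtn and Kcnj8, where it called 0.018% of all genes as higher. The markers were chosen from knowledge of pericytes in which Rgs5 is itself a member, and they had been seen in earlier results of these data.

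Vtn encodes vitronectin, an adhesive protein of plasma and matrix, and showed the lowest p of all genes. Vtn (ENSMUSG00000017344, chromosome 11, 78499091 to 78502324) stood at 9.02, 11.45, 9.20, 8.21 and 10.37 log2 CPM in the Rgs5-high libraries of Acta2GFP, C57BL6, Cspg4dsRED, PdgfrbGFP and the pool. In the Rgs5-low libraries it stood at 4.21, −0.83, 4.95, 1.53 and 2.02 in the same order, where −0.83 is the value given to 0 reads. All 5 high libraries were above all 5 low ones. Genes with this pattern, here and below, are among the 183 (2.23%) that were higher in every label, and their share of all genes was not counted. The log2 fold change was 6.91 ± 1.13 (SE; edgeR quasi-likelihood, Benjamini-Hochberg adjusted p 0.528), and it was 6.04 without C57BL6 and 5.30 without C57BL6 and the pool. Counted by cell, 18 of 38 Rgs5-high cells and 3 of 149 Rgs5-low cells reached 100 scaled counts, and the 18 came from every label (4 of Acta2GFP, 5 of C57BL6, 3 each of Cspg4dsRED, PdgfrbGFP and the pool). The median Rgs5-high cell held 54.8 scaled counts of Vtn, so that many cells with abundant Rgs5 held little of it. DESeq2, limma and edgeR without the filter called Vtn.

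Ndufa4l2, a protein related to a subunit of the respiratory chain that is induced by low oxygen, was found more broadly. Its levels were 9.72, 10.36, 10.88, 9.75 and 10.26 log2 CPM on the high side of Acta2GFP, C57BL6, Cspg4dsRED, PdgfrbGFP and the pool, and 7.86, 8.13, 9.63, 8.80 and 8.63 on the low side. Every label showed the higher value on the high side, and all high libraries lay above all low ones. In the fit over all labels it differed by 1.59 ± 0.38 on the log2 scale (SE; edgeR adjusted p 0.905), and by 1.36 without C57BL6 and the pool. It reached 100 scaled counts in 32 of 38 Rgs5-high and 85 of 149 Rgs5-low cells. Among the 939 genes ranked below, its level followed that of Rgs5 most closely from cell to cell. That ranking used the same Rgs5 values that set the sides, so it is not separate support.

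The potassium channel genes were split between labels. Kcnj8 encodes the pore of the ATP-sensitive potassium channel of vascular cells and Abcc9 its regulatory subunit, and both lie next to each other on chromosome 6, at 142564837 to 142571614 and 142587862 to 142702315. Kcnj8 stood at 8.49 against 3.23 log2 CPM in Acta2GFP, at 11.03 against −0.83 in C57BL6, at 5.88 against 3.40 in Cspg4dsRED, at −0.83 against 0.29 in PdgfrbGFP and at 11.25 against 0.00 in the pool, high side first. It was higher on the high side in 4 of 5 labels, and in PdgfrbGFP no Rgs5-high cell had a read of it. The log2 fold change was 5.73 ± 2.01 (SE), which edgeR did not call (adjusted p 0.905, Benjamini-Hochberg), whereas DESeq2 and edgeR without the filter did. Abcc9 stood at 8.16 against 4.70, 9.73 against −0.83, −0.83 against −0.30, −0.83 against 4.73 and 11.67 against 0.00 in the same order of labels. It was higher in 3 of 5, with a log2 fold change of 4.34 ± 2.80 (SE). Without C57BL6 and the pool, Kcnj8 remained positive at 2.58 and Abcc9 turned to −1.62, so that the difference in Abcc9 rests on those labels.

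In the same list of potassium channel genes, 10 of 15 were tested, with a median log2 fold change of 0.12, 0.81 above that of all genes. At an unadjusted p under 0.05, 1 was higher and 0 lower, where 0.743% and 4.72% of all genes were. Kcne4, an auxiliary subunit of voltage-gated channels, was higher in 4 of 5 labels by a log2 fold change of 0.61, which was −0.02 with equal numbers of cells. Kcnh2, a voltage-gated potassium channel outside the list, had been named for its low p in the other direction. It reached 100 scaled counts in 1 of 38 Rgs5-high cells and in 48 of 149 Rgs5-low cells, and its 74 reads on the high side came from 2 labels. DESeq2 and edgeR without the filter called it as lower, and edgeR with the filter did not.

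Among the other pericyte markers, Art3, a mono-ADP-ribosyltransferase family member, was the most even. It stood at 8.60, 8.94, 9.75, 8.50 and 9.60 log2 CPM on the high side and at 6.75, 6.36, 8.22, 6.58 and 7.40 on the low side, in Acta2GFP, C57BL6, Cspg4dsRED, PdgfrbGFP and the pool. Each high library was above each low library. Its log2 fold change was 2.02 ± 0.49 (SE), which DESeq2 called and edgeR did not (adjusted p 0.905, Benjamini-Hochberg). Steap4, a metalloreductase, was uneven. It was at 8.10 against 2.54 in Acta2GFP, 10.68 against −0.83 in C57BL6 and 9.70 against 2.17 in the pool, but at 3.64 against 3.60 in Cspg4dsRED and 3.13 against 3.79 in PdgfrbGFP. Both were named after their values were seen, as members of the list with an unadjusted p under 0.05.

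Pdgfrb, the receptor by which pericytes are recruited to endothelium, was higher on the high side in 5 of 5 labels. The values were 8.92 against 8.44 log2 CPM in Acta2GFP, 10.67 against 6.38 in C57BL6, 8.34 against 7.89 in Cspg4dsRED, 10.67 against 9.69 in PdgfrbGFP and 11.28 against 9.68 in the pool. Within each label the high side was above the low side, and between labels the sides overlapped. Its log2 fold change was 1.44 ± 0.57 (SE), and 0.85 without C57BL6. Cspg4, which encodes the proteoglycan NG2, showed no common direction, with differences of −1.07 in Acta2GFP, −3.92 in C57BL6 and −0.82 in Cspg4dsRED but 0.81 in PdgfrbGFP and 0.87 in the pool. Higd1b, a mitochondrial protein of the hypoxia-inducible domain family, was higher in 4 of 5 labels and turned to −1.0 without C57BL6 and the pool. Anpep had 403 reads on the high side and 42 on the low side and was not tested. Notch3 and Mcam, which were found in about equal shares of cells on both sides, had differences of either sign between labels.

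**Figure D2:**
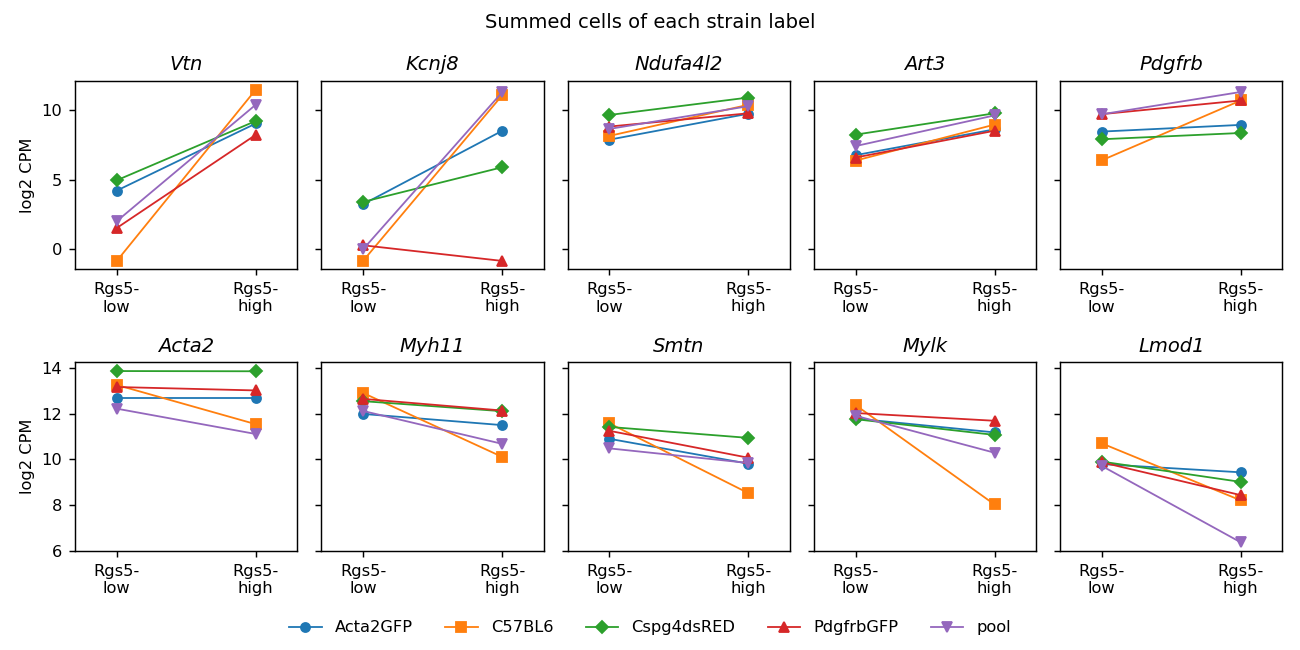
Levels of 5 pericyte markers (upper row) and 5 contractile genes (lower row) in log2 CPM, 1 point per library, with a line joining the Rgs5-low and Rgs5-high library of each strain label. Vtn, Ndufa4l2 and Art3 are higher on the high side in 5 of 5 labels without overlap, and Kcnj8 in 4 of 5; the 5 contractile genes are lower or level on the high side, most in C57BL6 and the pool.

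The contractile genes of smooth muscle stood lower on the high side, by less. All 27 genes of this list were tested. At an unadjusted p under 0.05, 0 were higher and 11 lower, where 0.743% and 4.72% of all genes were. Of the 27, 16 were lower in every label, where 7.81% of all genes were. The median log2 fold change was −0.92, which is 0.23 below the median of all genes tested. Over the 24 members with 8 or more log2 CPM it was −0.91, against −0.14 for all genes at that level. The summed share of these genes was lower on the high side in 5 of 5 labels. It was 4.19% against 5.30% of the counts in Acta2GFP, 1.89% against 6.01% in C57BL6, 5.88% against 6.57% in Cspg4dsRED, 4.74% against 6.26% in PdgfrbGFP and 2.19% against 4.43% in the pool. The median log2 fold change was −0.74 without C57BL6 and −0.40 without C57BL6 and the pool, where all genes stood at −0.73. Relative to the median of all genes, then, the list stood below it with all 5 labels and above it without those labels. Against genes of 8 or more log2 CPM it stayed below in each remaining label. The list's median differences were −0.29 in Acta2GFP, −0.13 in Cspg4dsRED and −0.34 in PdgfrbGFP, against 0.03, 0.06 and 0.06 for genes at that level. DESeq2 called 0 of the 27, with 4 lower and 1 higher at an unadjusted p under 0.05. Without the filter on low counts edgeR called 8 of the 27, all lower, namely Myh11, Acta2, Mylk, Tpm2, Pdlim7, Flna, Smtn and Cnn1, with 21 lower at an unadjusted p under 0.05. That fit called 0.103% of all genes as lower.

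Myh11 was at 11.50, 10.11, 12.11, 12.14 and 10.68 log2 CPM in the Rgs5-high libraries of Acta2GFP, C57BL6, Cspg4dsRED, PdgfrbGFP and the pool. In the Rgs5-low libraries it was at 11.99, 12.91, 12.55, 12.65 and 12.12. Each label showed the lower value on the high side, with differences from −0.44 in Cspg4dsRED to −2.80 in C57BL6. Its log2 fold change was −1.11 ± 0.34 (SE; edgeR adjusted p 0.905), and it was −0.48 without C57BL6 and the pool. Lmod1, leiomodin, which starts actin filaments in muscle, was lower in every label by −0.36 to −3.35, with a log2 fold change of −1.69 ± 0.52 (SE). Smtn, which binds actin in contractile smooth muscle, differed by −0.48 to −1.18 in 4 labels and by −3.06 in C57BL6. Mylk, the myosin light chain kinase, differed by −0.34 to −1.62 in 4 labels and by −4.36 in C57BL6. The direction was shared by all labels, and C57BL6 or the pool gave the largest difference for each of these 4 genes.

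Acta2, smooth muscle α-actin, was nearly level in 3 labels. The libraries stood at 12.68 against 12.68 log2 CPM in Acta2GFP, 13.86 against 13.87 in Cspg4dsRED and 13.02 against 13.17 in PdgfrbGFP, high side first. In C57BL6 they stood at 11.54 against 13.26 and in the pool at 11.11 against 12.22. Only the last 2 labels showed a difference of more than 0.15. The log2 fold change of Acta2 was −0.59 ± 0.26 (SE) over all labels and −0.05 without C57BL6 and the pool. Cnn1, calponin, also differed most in C57BL6 and the pool, at −0.73 in Acta2GFP, −0.13 in Cspg4dsRED and −0.45 in PdgfrbGFP against −6.79 in C57BL6 and −2.24 in the pool. Tagln, Tpm2, Csrp1 and Flna were lower in every label too, though 67.9% of the exonic bases of Tagln overlap an antisense gene and its counts are uncertain. Des, the intermediate filament protein desmin, was higher in Acta2GFP (10.61 against 10.29) and lower in the other 4. Myl9, an abundant regulatory light chain, differed by −0.94 in C57BL6 and by −0.14 to 0.11 elsewhere.

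The same genes were then counted cell by cell. A cell was counted for a marker when it reached 100 scaled counts. Of the 6 markers of the pericyte-like side other than Rgs5 (Kcnj8, Abcc9, Higd1b, Ndufa4l2, Vtn and Cspg4), 3 or more were found in 21 of 38 Rgs5-high cells and in 9 of 149 Rgs5-low cells. At least 4 of them were found in 9 and 0 cells. Of the 5 smooth muscle markers (Acta2, Myh11, Tagln, Cnn1 and Actg2), 4 or more were found in 55.3% of Rgs5-high cells and in 85.2% of Rgs5-low cells, and 2 Rgs5-high cells had none of them. Cells that carried Rgs5 together with 3 or more smooth muscle markers were thus the majority of the high side, at 34 of 38.

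**Figure D3:**
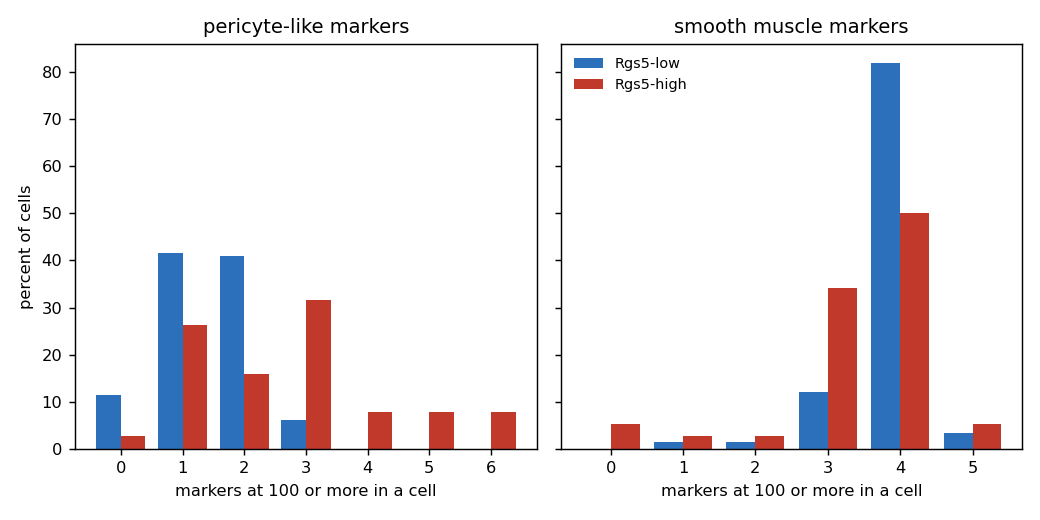
Share of Rgs5-high and Rgs5-low cells (percent) by the number of markers at 100 or more scaled counts, for 6 pericyte-like and 5 smooth muscle markers. At least 3 pericyte-like markers are seen in 21 of 38 high and 9 of 149 low cells.

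The channel genes marked part of the Rgs5-high cells. Kcnj8 or Abcc9 reached 100 scaled counts in 12 of 38 Rgs5-high cells and in 5 of 149 Rgs5-low cells, and both did so in 9 and 0 cells. The 12 cells were 5 of 5 in C57BL6, 4 of 5 in the pool, 2 of 11 in Acta2GFP, 1 of 10 in Cspg4dsRED and 0 of 7 in PdgfrbGFP. In these 12 cells the median was 4270 scaled counts of Rgs5, 1560 of Acta2, 349 of Myh11 and 0 of Cnn1. In the other 26 Rgs5-high cells it was 614 of Rgs5, 5010 of Acta2, 1970 of Myh11 and 286 of Cnn1, and in the 149 Rgs5-low cells it was 6020 of Acta2, 2470 of Myh11 and 706 of Cnn1. Cells with Rgs5 but without the channel genes thus lay closer to the Rgs5-low cells in these contractile genes than the 12 cells did, with a lowest value of 1967 for Acta2 and 666 for Myh11. Vtn reached 100 scaled counts in 10 of the 12 and in 8 of the 26. Ndufa4l2 did so in 10 of the 12 and 22 of the 26, and Rgs4 in 7 and 25. This division was made after the values were seen and is given as a description with no test. Of the 12 cells, 9 came from C57BL6 and the pool, in which plate or depth also differed between the sides.

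**Figure D4:**
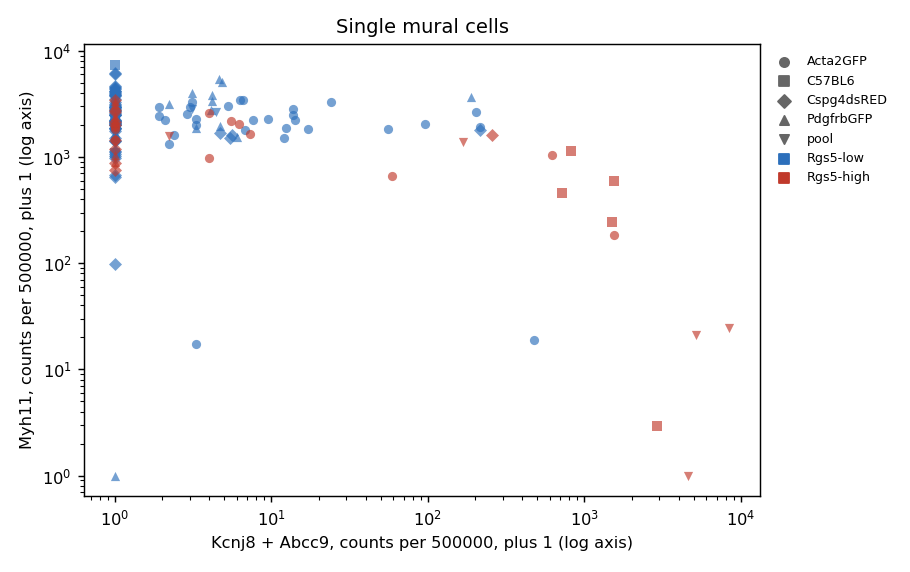
Myh11 against the sum of Kcnj8 and Abcc9 in each mural cell (counts per 500000, log scales), marked by side of the Rgs5 threshold and by strain label. The 12 Rgs5-high cells with Kcnj8 or Abcc9 at 100 or more have a median of 349 for Myh11, and the other 26 have 1970.

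From cell to cell, the genes most like Rgs5 were ranked by Spearman's rho within each label, averaged over the 5 labels, among 939 genes found at 100 or more scaled counts in 30% or more of the mural cells. Ndufa4l2 came first with a mean rho of 0.52, from 0.31 in PdgfrbGFP to 0.83 in C57BL6. Ifitm3, an interferon-induced membrane protein, and Tuba1a, an α-tubulin, both had 0.49. Tmsb4x and Itm2b had 0.41, Sparc 0.39, and Ftl1 and Gng11 0.38. The lowest values were those of Sorbs2, an adaptor of the actin cytoskeleton, at −0.57, of Perp and Dmpk at −0.50 and of Adamtsl1 at −0.49. All of these genes had the same sign in every label. Rgs5 also set the sides, so the ranking and the difference between the sides are not independent. The direction of these genes between the sides was therefore largely fixed by their choice. The cells of a label share plates and depth, and C57BL6 and the pool, with 9 and 11 cells, had the most extreme values for most of these genes.

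In the summed libraries, Sorbs2 was lower in every label, by −0.05 in Cspg4dsRED, −1.19 in Acta2GFP and −1.28 in PdgfrbGFP and by −4.50 in C57BL6 and −6.19 in the pool. Perp, a desmosome-associated protein, was found in 4 of 38 Rgs5-high and 85 of 149 Rgs5-low cells at 100 or more scaled counts. Its differences ran from −0.77 in Cspg4dsRED to −9.43 in the pool, and its log2 fold change was −4.83 ± 1.49 (SE), and −2.63 without C57BL6 and the pool. DESeq2, limma and edgeR without the filter called it, and edgeR with the filter did not. Sorbs2 was called by edgeR without the filter alone, and Adamtsl1 by that fit and by DESeq2. Ifitm3 was higher in every label, by a log2 fold change of 1.69 ± 0.50 (SE).

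Outside the lists, the genes of lowest p that were higher in every label and had a mean of 4 or more log2 CPM included Zeb2, Cmtm3, Sept4, Serping1 and C1s1 beside Vtn, Ndufa4l2 and Art3. The common direction and low p of these 8 genes were conditions of their choice. Serping1, the inhibitor of the complement protease C1, was the most even of them. It stood between 10.64 and 10.97 log2 CPM in the 5 high libraries and between 9.51 and 10.05 in the 5 low libraries. The ranges did not overlap, which the choice by low p and common direction favours. The log2 fold change was 1.03 ± 0.29 (SE) over all labels and 1.04 without C57BL6 and the pool. Serping1 reached 100 scaled counts in 94.7% of Rgs5-high and 79.9% of Rgs5-low cells. C1s1, a protease of the same complement step, was higher by a log2 fold change of 1.66 ± 0.47 (SE), with differences from 0.36 in Cspg4dsRED to 2.90 in the pool.

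Zeb2, a zinc finger transcription factor of mesenchymal cells, was at 8.68, 10.33, 8.11, 8.64 and 6.92 log2 CPM in the high libraries of Acta2GFP, C57BL6, Cspg4dsRED, PdgfrbGFP and the pool, and at 5.35, 5.12, 4.99, 6.24 and 5.25 in the low ones. All high libraries lay above all low ones. It was found in 13 of 38 and 11 of 149 cells, and its log2 fold change was 3.12 ± 0.70 (SE). Cmtm3, a membrane protein of the chemokine-like factor family, was found at 100 or more scaled counts in 9 of 38 Rgs5-high cells and in 0 of 149 Rgs5-low cells. Sept4, a cytoskeletal GTPase of the septins, was found in 16 of 38 and 5 of 149. DESeq2 called Zeb2, Cmtm3 and Sept4, and edgeR without the filter called Sept4, on the same libraries from which these genes were chosen.

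The 8 genes of lowest p in the other direction, again chosen to be lower in every label, were Kcnh2 (above) and 7 genes found in few cells of either side. Hcrtr1, an orexin receptor, had 6 reads in all Rgs5-high cells together and 2580 reads in the Rgs5-low cells, and reached 100 scaled counts in 0 of 38 and 16 of 149 cells (10.7%). A count of 0 of 38 cells allows a share of up to 7.89%, so that the cell counts of the sides are not far apart. Cbr2 had 1 and 1360 reads, Nelfe 4 and 2370, Tnip1 5 and 1576, Me3 42 and 3050 and ENSMUSG00000096232 2 and 709. Each of these 5 reached 100 scaled counts in 0 of 38 Rgs5-high cells and in 5 to 20 of 149 Rgs5-low cells. Raver1 had 33 and 3173 reads, and 99.7% of its exonic bases overlap another gene, so its counts are uncertain. No fold change is given for these 8 genes, since their high libraries held few or no reads. DESeq2 called all 8 as lower, and edgeR without the filter called Kcnh2, Hcrtr1 and Raver1. These fits used the same libraries from which the 8 were chosen by p, so their calls are not separate support.

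Signalling genes showed mixed directions. Of 54 vasoactive receptors and nitric oxide targets 25 were tested. At an unadjusted p under 0.05, 1 was higher and 4 lower, where 0.743% and 4.72% of all genes were. The median log2 fold change of −0.73 was that of all genes within 0.05. Ednra, the endothelin receptor of smooth muscle, was higher in every label, by 0.17 to 1.04. Ednrb, the other endothelin receptor, was also higher in every label, and was found in 6 of 38 and 2 of 149 cells. Gucy1a1, a subunit of the nitric oxide sensor guanylate cyclase, stood between 9.84 and 11.75 log2 CPM on the high side and between 10.26 and 11.26 on the low side, without a common direction. Beside Hcrtr1, the lower members at an unadjusted p under 0.05 were Adra1a, Tbxa2r and Crhr2, receptors for catecholamines, thromboxane and urocortins, and each had fewer reads on the high side (32, 256 and 149) than on the low side (1069, 5567 and 4123). Tbxa2r was higher on the high side in C57BL6 and Crhr2 in Cspg4dsRED (6.52 against 5.96 log2 CPM). DESeq2 called 6 of the 25, where it called 7.81% of all genes. It called Ednrb as higher and Hcrtr1, Adra1a, Adra2b, Tbxa2r and Crhr2 as lower, and edgeR without the filter called Hcrtr1.

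Of 28 calcium handling genes 23 were tested, 6 with positive and 17 with negative values. Their median was −0.79, close to that of all genes (−0.69). At an unadjusted p under 0.05, 1 was higher (Trpc1) and 1 lower (Casq1), where 0.743% and 4.72% of all genes were. DESeq2 called 5 of the 23, where it called 7.81% of all genes, with Trpc1 higher and Cacna1h, Cacnb3, Casq1 and Trpc6 lower. The median was 0.18 without C57BL6 and the pool, where all genes stood at −0.73. Pln, which restrains the calcium pump of the sarcoplasmic reticulum, was at 9.62 against 9.10 log2 CPM in Acta2GFP, 9.82 against 9.46 in Cspg4dsRED and 10.17 against 10.05 in PdgfrbGFP, high side first. In the Rgs5-high libraries of C57BL6 and the pool it had 0 reads, against 735 and 3175 reads on the low side. Its direction therefore turned with the label, and an antisense gene overlaps 64.7% of the bases of its exons. Casq2, which stores calcium, was higher in 4 labels by 0.27 to 1.69 and had 0 reads in the Rgs5-high library of C57BL6.

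Of 22 other genes of the RGS family, 6 had no read in any mural cell and 4 were tested, of which 0 passed an unadjusted p of 0.05. Together they took a larger share of the counts on the high side in 5 of 5 labels, at 0.263% against 0.154% in Acta2GFP, 0.155% against 0.149% in C57BL6, 0.218% against 0.133% in Cspg4dsRED, 0.321% against 0.175% in PdgfrbGFP and 0.23% against 0.198% in the pool. Rgs4, whose gene is a neighbour of Rgs5 on chromosome 1 (169741477 to 169747642, minus strand), was at 10.47, 9.41, 10.69, 11.45 and 11.04 log2 CPM in the high libraries of Acta2GFP, C57BL6, Cspg4dsRED, PdgfrbGFP and the pool. In the low libraries it was at 9.85, 9.75, 10.21, 10.41 and 10.22. It was higher in 4 of 5 labels, by a log2 fold change of 0.53 ± 0.32 (SE). Rgs2, Rgs6 and Rgs7bp had log2 fold changes of −0.31, −0.83 and −0.74 with standard errors of 1.19 or more.

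The remaining lists of signalling, matrix and stress genes had medians between −0.13 and 0.60, where all genes tested stood at −0.69. At an unadjusted p under 0.05, 0.743% of all genes were higher and 4.72% lower, and DESeq2 called 7.81% of all genes. Of the Notch pathway 10 of 17 genes were tested with a median log2 fold change of −0.04, and 0 passed an unadjusted p of 0.05. Of PDGF, TGF-beta and angiopoietin signalling 17 of 25 were tested, with a median of −0.11, and Pdgfrb alone passed it. DESeq2 called 1 of these, Vegfb, as lower. Of 30 genes of basement membrane and vessel wall matrix 22 were tested with a median of −0.13, and Sparc, Timp3 and Nid1 passed it, all higher. Without C57BL6 and the pool these 3 had log2 fold changes of 0.13, 0.44 and 1.8, against 0.87, 0.85 and 3.15 with all labels. DESeq2 called 3 matrix genes, Nid1 and Fbn1 higher and Col4a5 lower. Timp3, an inhibitor of metalloproteinases, was higher in 4 of 5 labels by a log2 fold change of 0.85. Of 22 immediate early and stress genes 20 were tested, and Klf6 alone passed an unadjusted p of 0.05, as higher. Of these genes 18 had positive values, and the median was 0.60. Their summed share of the counts was higher on the high side in 4 labels, at 1.37% against 0.887% in Acta2GFP, 2.42% against 0.867% in C57BL6, 2.07% against 1.32% in PdgfrbGFP and 1.23% against 0.751% in the pool, and lower in Cspg4dsRED at 1.18% against 1.60%. These genes can respond to tissue dissociation, and their part in the other differences was not tested.

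**Figure D5:**
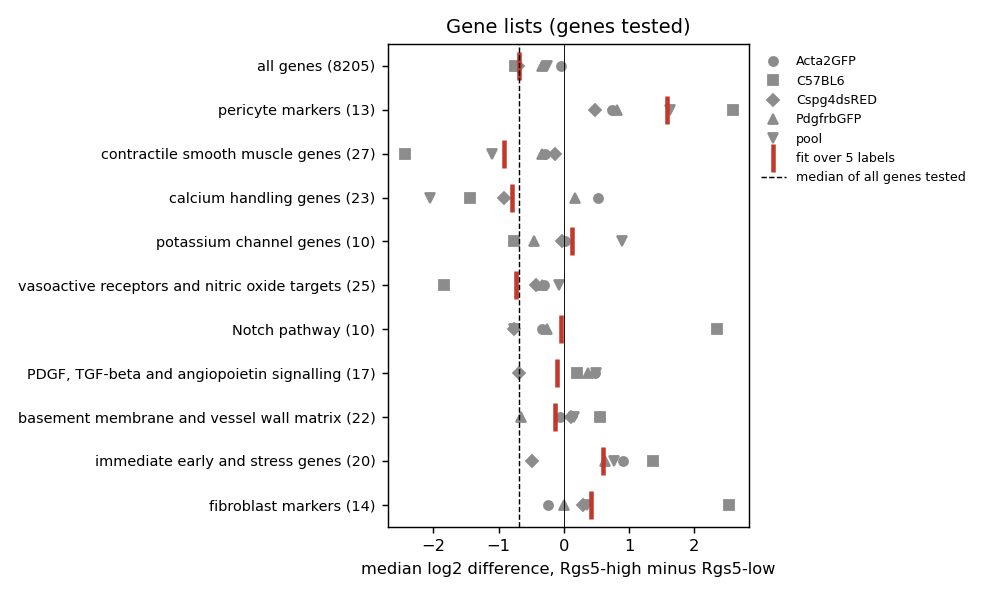
Median log2 fold change (Rgs5-high minus Rgs5-low) of the gene lists with at least 10 genes tested and of all genes tested, with the median difference in each strain label as points. Pericyte markers lie at 1.59 and contractile genes at −0.92, beside −0.69 for all 8205 genes.

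Markers of other cell types were checked on both sides. Fibroblast markers, of which 14 of 15 were tested, had a median log2 fold change of 0.41, and of 0.03 without C57BL6. In both fits all genes stood at −0.69. They took 0.372% to 0.642% of the counts of the high libraries and 0.213% to 0.422% of the low ones. At an unadjusted p under 0.05, 0 of them were higher and 1 lower (Loxl1), where 0.743% and 4.72% of all genes were. Loxl1 reached 100 scaled counts in 2 of 38 Rgs5-high and 39 of 149 Rgs5-low cells. Endothelial markers took 0.0618% to 0.123% of the counts on the high side and 0.0166% to 0.0807% on the low side, higher in 4 of 5 labels. Of 12 endothelial markers 3 were tested, namely Esam, Pecam1 and Ly6c1. Pecam1, which encodes CD31, had 240 reads in the Rgs5-high and 297 in the Rgs5-low cells, from 1.90 to 7.63 log2 CPM on the high side, and was highest in the pool. Of the 240 reads 189 were in the pool, where 1 Rgs5-high cell reached 100 scaled counts of Pecam1. Skeletal muscle markers took up to 0.0816% and Schwann cell markers up to 0.00432% of the counts of a library. The part of these genes in the differences above was not tested.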

How the data were processed

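The authors sorted single cells into plates and made libraries with Smart-seq2, which carries no molecular identifiers. Per the labels and the study's methods, reads were demultiplexed with bcl2fastq, trimmed, aligned to GRCm38 by TopHat2 (Bowtie and Bowtie2 are also named) and counted per gene with featureCounts. The annotation release and strand setting are not given in the sources used here. The authors dropped cells with few counts, with few or very many genes (as possible doublets) and with endothelial or immune signatures; no doublet caller was run here. The deposited values are raw read counts per gene and cell. Cluster, strain and plate came from the labels, and 0 pairs of mural cells had identical values.

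Spike-ins and Rgs5 were left out. Counts were summed by strain label and side of the threshold. Genes were kept by filterByExpr, scaled by TMM and compared with edgeR's quasi-likelihood test (edgeR 4.0.16, R 4.3.3) with the strain label as a block, since both sides come from the same label, and p-values were adjusted by Benjamini-Hochberg. DESeq2 1.42.0 and limma 3.58.1 were alternatives, with 16 planned and 4 added after seeing the data. Scripts were tested on simulated data. The blocked fit is the main one, because the rule asked for it. Depth is given with the results.

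The text draws on a fixed set of mural markers, the 8 genes of lowest p in each direction with the same sign in every label and a mean of 4 or more log2 CPM, the 3 most abundant members of each of 15 gene lists, list members with an unadjusted p under 0.05, which were added after seeing the data, and the 8 genes most and 4 genes least like Rgs5 across cells. Not every gene of these sets is named. Members and lists were chosen with earlier results of these data known.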

Additional observations from a re-analysis of the deposited data

Results flagged for a closer look

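A strain label was looked at again where its difference between the Rgs5-high and the Rgs5-low library lay far from the differences of the other 4 labels (Dixon's test on the 5 values). This was found for 10 of 88 named genes, where chance gives about 1 in 20. In 8 of the 10 the label was C57BL6, whose sides came from different plates and whose Rgs5-low library held the immune reads. C57BL6 lay lowest for Casq2 (−10.34 log2 CPM, others 0.27 to 1.69), S1pr3 (−11.32, others −0.92 to 0.15), Rgs7bp (−10.43, others −1.91 to 0.85), Sparcl1 (−1.42, others −0.06 to 0.17), Myl9 (−0.94, others −0.14 to 0.11) and Smtn (−3.06, others −1.18 to −0.48). It lay highest for Dcn (4.33, others −0.36 to 0.42) and Tbxa2r (8.45, others −8.23 to −5.14). Casq2, S1pr3 and Rgs7bp had 0 reads in the 5 Rgs5-high cells of C57BL6. Acta2GFP lay highest for Me3 (−2.65, others −7.32 to −6.04) and Ednra (1.04, others 0.17 to 0.41).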

How the results depend on the processing

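The number of genes called depended on the method. DESeq2 called 641 genes (72 higher and 569 lower), edgeR without a filter on low counts called 27 (4 higher and 23 lower), and limma on cell means, chosen after seeing the data, called 2 (1 higher and 1 lower), while all other alternatives, leaving out each strain label among them (lowest and highest count 0), called 0. The cause was not tested. The strain label is the only pairing of the sides. Without the replicate block edgeR also called 0, and the median of all genes was 0.03 instead of −0.69. It was −0.55 with RLE size factors and −1.02 with the plate as the unit. Of 1675 values of single genes recomputed, 1557 kept their direction and their side of the threshold, 43 came to pass it (under DESeq2, limma or without the filter) and 75 turned sign. Of 200 list medians recomputed, 9 moved by more than the spread between labels and 34 turned sign. The latter were of the potassium channel, calcium, vasoactive, Notch, PDGF, matrix and fibroblast lists, whereas the medians of pericyte markers, contractile genes and immediate early and stress genes kept their sign. Leaving out C57BL6 is the same fit as asking for 5 or more cells on both sides.

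The log2 fold changes of single genes that turned sign were these. Without C57BL6 and the pool, chosen after seeing the data, they were −1.62 for Abcc9 (4.34 with all labels), −1.0 for Higd1b, −0.35 for Notch3, −0.33 for Nr4a1, −1.87 for Actg2, 0.01 for Myl9, 0.06 for Sparcl1, 0.12 for Gucy1a1, 0.34 for Pln, 0.55 for Atp2a2 and 0.7 for Rgs7bp. The fit by plate also left out C57BL6 and the pool. With the plate as the unit the values were −0.99 for Higd1b, −0.32 for Notch3, −0.19 for Nr4a1, −0.49 for Pecam1, −1.88 for Actg2, 0.08 for Sparcl1, 0.22 for Gucy1a1, 0.29 for Pln, 0.55 for Atp2a2 and 0.71 for Rgs7bp. With 5 or more cells on both sides they were 0.01 for Sparcl1, 0.08 for Rgs7bp, 0.09 for Gucy1a1, 0.25 for Atp2a2 and 0.27 for Ly6c1. With DESeq2, and likewise with RLE size factors, they were 0.01 for Heyl, 0.09 for Atp2a2, 0.09 for Mcam and 0.1 for Gucy1a1. At an Rgs5 threshold of 200 they were 0.04 for Mcam, 0.06 for Heyl and 0.1 for Gucy1a1. Against Rgs5-low cells with 0 Rgs5 reads they were 0.01 for Cspg4, 0.18 for Gucy1a1, 0.29 for Atp2a2 and 0.87 for Ly6c1. Without the replicate block they were 0.04 for Gucy1a1, 0.06 for Atp2a2, 0.48 for Rgs2 and 0.74 for Ly6c1. Equal reads per cell gave 0.22 for Heyl, cells with 100000 or more counts gave 0.01 for Atp2a2, and no filter gave −0.07 for Casq2. Of the other alternatives chosen after seeing the data, equal numbers of cells gave −0.02 for Kcne4, −0.12 for Casq2 and 0.01 for Gucy1a1. Genes detected in 30% or more of cells gave 0.09 for Atp2a2, 0.1 for Mcam and 0.11 for Gucy1a1, and limma gave −0.34 for Nr4a1, −0.38 for Casq2 and −0.48 for Pecam1. Leaving out each strain label in turn gave ranges of −0.17 to 0.2 for Mcam, −0.31 to 0.84 for Casq2, −0.24 to 0.25 for Atp2a2, −0.19 to 0.09 for Gucy1a1, −0.72 to 0.23 for Heyl, −0.37 to 0.01 for Sparcl1, −0.51 to 0.98 for Pecam1, −1.13 to 0.27 for Ly6c1, −1.36 to 0.08 for Rgs7bp and −0.91 to 0.56 for Rgs2. The causes were not tested.

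Depth and cell number limit the high side most, which has 38 cells, 5 of them in C57BL6 and 5 in the pool. A count of 0 of these cells allows a share of up to 7.89%.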

Other observations

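Actg2, the γ-actin of visceral smooth muscle, was confined to few mural cells, at 100 or more scaled counts in 3 of 38 Rgs5-high and 5 of 149 Rgs5-low cells, and its difference had either sign between labels. Gja4, a gap junction protein on the list of pericyte markers, was the member lower in every label, with a log2 fold change of −0.72 ± 0.47 (SE), close to the shift of all genes. Kcnj8 or Abcc9 at 100 or more without Rgs5 at that level was seen in 5 cells, 3 of Acta2GFP, 1 of Cspg4dsRED and 1 of PdgfrbGFP, and none of these 5 held both. The 3 cells outside cluster 7 with 100 or more Rgs5 counts came from Acta2GFP (2 cells, 1.98% of its other cells) and the pool (1 cell, 0.249%).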
